A study of Homo sapiens with 2 samples.

Results

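Histone genes were followed here by the names they carry in the transcript annotation of the series: 87 gene entries named HIST1H to HIST4H, the replication-dependent genes of the histone clusters, and 29 entries named H2AF, H3F3 or H1F, the replacement genes. These 116 entries were taken from 57110 gene entries in all. The data are single-cell RNA libraries from a pool of the established ovarian cancer lines COV504, IGROV1 and SK-OV-3, combined at equal numbers. One library was read on an Illumina instrument and the other as whole cDNA molecules on a nanopore PromethION instrument. Every histone value below comes from the PromethION library, and all of its 2462 cell barcodes also stood in the barcode list of the Illumina library.

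Each S phase doubles a cell's DNA, and the clustered histone genes supply the histones that package it. Their mRNAs are known to end without a poly(A) tail, at a short stem-loop bound by the protein SLBP, and to be destroyed when replication stops. Replacement genes are known to be expressed in and out of S phase and, with exceptions such as H2AFX, to end only in an ordinary poly(A) tail. Several, such as H3F3A, H3F3B and H2AFZ, carry introns, while H1F0, H1FX, H2AFJ and H2AFX are single exons in this annotation. A library primed on poly(A) is therefore known to see little of the first kind. The deposited files record no tails and no read ends, so whether a molecule was polyadenylated was not measured, and transcript ends below are those of the annotation. The name of the replacement group also covers genes that lie outside the clusters.

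The lines were separated by markers, since the labels do not tie barcodes to lines. A barcode with at least 1000 counts was given to a class when 1 of 3 marker groups held at least 75% of its marker counts. The ERBB2-high class (ERBB2, NNMT, TSPAN1, DHRS2) held 648 barcodes, the RARRES2-high class (RARRES2, TMEM100) 473 and the FOLR1-high class (FOLR1, CLDN3, DEFB1, CXCL14) 765. SK-OV-3 is known for amplified ERBB2. No line name was given to the other classes. Median depth was 4953, 6262 and 5289 counts per barcode in this order, and 576 barcodes fell in no class. Ribosomal protein genes took 12.0%, 15.0% and 26.7% of the counts, and mitochondrial genes 2.93%, 3.11% and 7.07%. Levels are counts per 1000000 counts of a class (CPM) with exact 95% Poisson intervals in brackets, which cover counting error only. There was 1 library, so no difference has a replicate check and no p-value is given.

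The stem-loop is the sequence that marks this family, and the sites of the 8 members with over 100 counts for a transcript that holds it are shown with 5 bases on either side. HIST1H4H was added for the H4 family, and HIST1H2BD because its counts lie in another form. They were read from GENCODE release 29 transcripts on GRCh38. The 16 bases of the stem-loop, searched on the sense strand as a 6-base stem, a 4-base loop and the facing stem with free bases at the places that vary, are in capitals.
HIST3H2A: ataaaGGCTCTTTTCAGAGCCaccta
HIST2H2AA4: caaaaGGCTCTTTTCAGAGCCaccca
HIST1H2AG: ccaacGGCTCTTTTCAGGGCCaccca
HIST1H2AC: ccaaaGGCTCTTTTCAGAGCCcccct
HIST1H2BN: ccaaaGGCTCTTTTCAGAGCCactca
HIST1H3G: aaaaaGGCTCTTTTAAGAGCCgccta
HIST1H2BC: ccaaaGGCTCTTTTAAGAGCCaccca
HIST1H2BD: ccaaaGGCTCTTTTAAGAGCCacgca
HIST1H4H: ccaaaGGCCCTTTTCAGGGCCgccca
H2AFX: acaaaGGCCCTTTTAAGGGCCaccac

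HIST3H2A lies at chr1:228456979-228457873 and had 651 counts, and HIST2H2AA4 at chr1:149851061-149851624 had 645. HIST1H2AG at chr6:27133042-27135291 had 398 counts. The HIST1H2BN transcript had 166 counts, HIST1H3G 159 and HIST1H4H 91.5. H2AFX had 556 and was the only replacement gene with a match. The stem-loop stood in 39 of 100 annotated HIST transcripts, in 1 of 51 replacement transcripts and in 0.203% of the 99015 transcripts of other genes. A short model without a match does not show that its gene lacks the stem-loop. HIST1H3D, for example, has a model of 411 bases without a match and another of 948 bases with it. The commonest of its 7 spellings, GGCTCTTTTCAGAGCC, was shared by 21 transcripts of 19 genes. Next came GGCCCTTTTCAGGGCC in 6 transcripts and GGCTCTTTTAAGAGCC in 5. The H4 gene HIST1H4H has the first of these, and H2AFX has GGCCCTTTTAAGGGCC.

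Apart from HIST1H4C, counts lay mostly in transcripts annotated to run on past the stem-loop. Over all HIST genes 14.1% of counts fell to models with 100 or more annotated bases after it, 5.06% to models with fewer and 80.8% to models without it, nearly all of the last in HIST1H4C. Leaving out HIST1H4C, 56.8% of HIST counts fell to 24 transcripts with 100 or more annotated bases after it, 20.4% to 15 transcripts with fewer, and 22.8% to models without it. Of the 24 longer models 23 had counts, with a median of 18.5, against 10 of 15 shorter ones, with a median of 2.5. The HIST1H2AG model ran 1761 bases past the site, HIST1H3G 1518 and HIST1H2AC 1114. HIST2H2AA4 was the exception among the abundant ones, with 645 counts and 35 bases after its site. HIST1H4C, which encodes histone H4, has a single model of 435 bases (chr6:26103876-26104310) that ends without the motif, so its reads cannot be placed in this scheme. The same holds for the models of the clustered H1 genes, none of which has the motif. They include HIST1H1D with 141 counts and HIST1H1E with 102, and are part of the 22.8%, which is therefore not a share of transcripts shown to lack the stem-loop. The canonical signal AATAAA stood in the last 50 bases of 21 of 100 HIST and 11 of 51 replacement models, against 34.2% of all transcripts. Among HIST models it stood in 13 of the 24 with 100 or more bases after the stem-loop. It stood in 4 of the 15 with fewer and 4 of the 61 without the stem-loop. The HIST1H2BG model holds a run of 30 A bases, and its 78 counts are given with that in view.

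**Figure D1:**
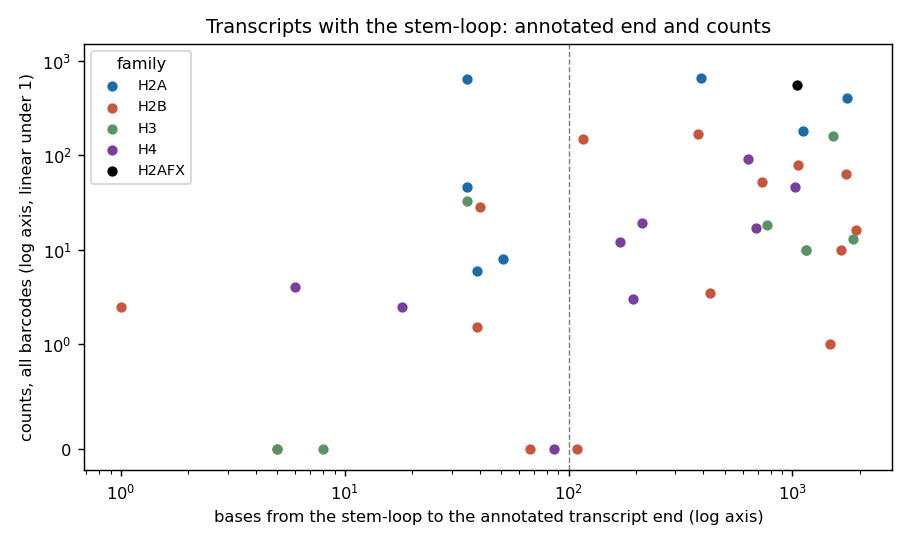
Each point is 1 of the 40 annotated histone transcripts with the stem-loop (some coincide). The x axis gives the bases from the stem-loop to the annotated end on a log axis, the y axis gives counts in all barcodes, and the dashed line marks 100 bases. Counts over 100 lie to the right of the line except for HIST2H2AA4 at 35 bases with 645 counts.

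Another way past the stem-loop in the annotation is splicing. HIST genes are known as genes without introns, yet 15 annotated HIST forms have more than 1 exon, and 11 of these, from 10 genes, had counts. In 9 forms the exons hold no stem-loop match. HIST1H2BC, an H2B gene, has both kinds. Its form ENST00000396984 is 1 exon (chr6:26123356-26123926) with the stem-loop and its 5 bases on either side at chr6:26123467-26123492. Its form ENST00000314332 joins the coding exon (chr6:26123515-26123910) over an intron of 8379 bases to an exon at chr6:26114873-26115135, and leaves the stem-loop out. The first had 147 counts and the second 161. HIST1H2BD, also an H2B gene, had 152.5 counts in the spliced form ENST00000289316, with an intron of 12415 bases, and 1.5 in the form with the stem-loop. HIST1H2BJ had all its 66 counts in the spliced form ENST00000607124, with an intron of 5904 bases. HIST1H2AC, an H2A gene, had 42.4 counts in ENST00000602637, whose first exon stops short of the stem-loop, and 179.6 in ENST00000377791, whose first exon includes it before a second exon with the same start. Fractions of a count arise where the authors divided a read among forms of 1 gene.

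Counts stood in 47 of 87 HIST and 11 of 29 replacement entries, beside 17806 of all 57110 entries. Of 72 protein-coding HIST genes 47 had counts, and all 15 HIST entries that are not protein-coding were at 0, which allows up to 0.23 CPM each. Of 16 protein-coding replacement genes 10 had counts, and of 13 other replacement entries only H1FX-AS1, with 1 count. HIST genes held 15345 counts, 0.118% of the library, and replacement genes 60054, or 0.460%. Within the classes 10 HIST and 9 replacement genes had 100 or more counts. HIST1H4C alone took 76.5% of HIST counts in the 3 classes.

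The HIST total and its makeup differed between the lines in different ways. The HIST level was 1476 CPM (1436 to 1517) in ERBB2-high, 1316 (1277 to 1355) in RARRES2-high and 852 (826 to 880) in FOLR1-high barcodes. As a mean over barcodes the first 2 changed places, with 1242 CPM in ERBB2-high, 1304 in RARRES2-high and 771 in FOLR1-high. HIST1H4C made up 87.7% of it in ERBB2-high, 59.5% in RARRES2-high and 81.5% in FOLR1-high. Without this gene RARRES2-high came first and FOLR1-high stayed lowest: 182 CPM (168 to 197), 533 (509 to 558) and 157 (146 to 169). The rest of the family was thus 2.93-fold (2.67 to 3.21) higher in RARRES2-high than in ERBB2-high barcodes and 3.39-fold (3.11 to 3.70) higher than in FOLR1-high. Replacement genes summed to 4686 CPM (4614 to 4759), 5876 (5794 to 5958) and 3365 (3311 to 3418).

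**Figure D2:**
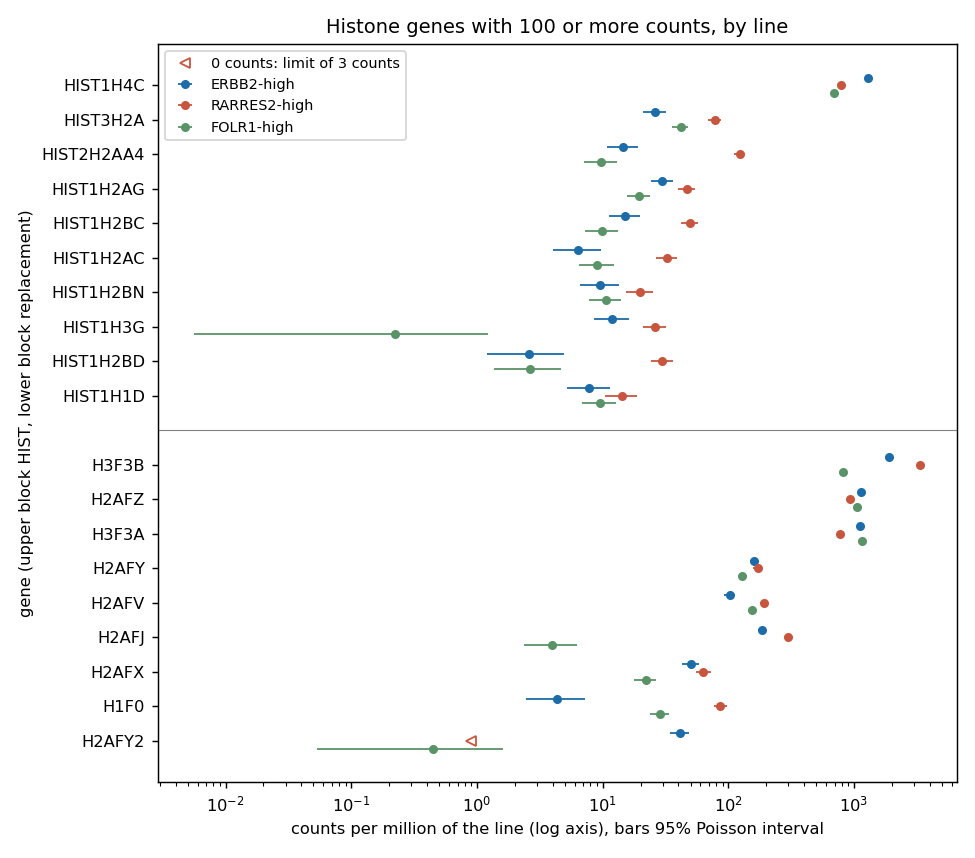
CPM on a log axis of each histone gene with 100 or more counts, HIST genes above the line and replacement genes below, for the 3 line classes, with 95% Poisson intervals. The open triangle is H2AFY2 in RARRES2-high, at 0 counts, drawn at the limit of 3 counts. RARRES2-high was highest for 9 of the 10 HIST genes, beside 32.5% of the 8486 entries with at least 100 counts, and HIST1H4C was highest in ERBB2-high.

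HIST1H4C stood at 1294 CPM (1256 to 1332) in ERBB2-high, 783 (753 to 813) in RARRES2-high and 695 (671 to 720) in FOLR1-high. Each interval lay apart from the others. Its level in RARRES2-high was 0.60 of that in ERBB2-high and 1.13-fold that in FOLR1-high, or 0.91 when mitochondrial and ribosomal protein genes were left out of the total.

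The core H2A and H2B genes of the clusters were highest in RARRES2-high barcodes. This held for 12 of 13 HIST H2A and H2B genes with at least 20 counts, and for 5 of the 10 other HIST genes at that depth, where 32.2% of the 11927 entries with at least 20 counts were highest in RARRES2-high. HIST2H2AA4 read 14.5, 123 and 9.75 CPM in ERBB2-high, RARRES2-high and FOLR1-high. It shares 97.2% of its 31-base windows with its copy HIST2H2AA3, so the split between them is uncertain. Summed, the pair read 16.3, 132 and 10.6 CPM, again far apart from both other classes.

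HIST3H2A, an H2A gene on chromosome 1, read 25.9 CPM (20.8 to 31.8) in ERBB2-high, 77.9 (68.7 to 87.9) in RARRES2-high and 41.6 (35.9 to 48.0) in FOLR1-high. HIST1H2AG, an H2A gene, read 29.6, 46.8 and 19.5 CPM. HIST1H2BN, an H2B gene, read 9.59, 19.8 and 10.6 CPM. In HIST3H2A and HIST1H2AG all 3 intervals stood apart, while HIST1H2BN did not differ beyond counting error between ERBB2-high and FOLR1-high. HIST1H2BC read 15.1, 49.1 and 9.97 CPM, and HIST1H2AC, which starts 235 bases away on the other strand, read 6.39, 32.3 and 9.08 CPM. HIST1H2BD read 2.61 CPM (1.20 to 4.96), 29.6 (24.1 to 36.0) and 2.66 (1.37 to 4.64). It was 11.3-fold higher in RARRES2-high than in ERBB2-high, or 17.1-fold with at least 10 marker counts per barcode. Its ratio to FOLR1-high, 11.1, ran from 6.28 to 19.2 over the alternatives.

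Outside H2A and H2B, HIST1H3G, an H3 gene, read 11.9 CPM in ERBB2-high and 26.1 in RARRES2-high, but had a single count in FOLR1-high barcodes. The ratio of RARRES2-high to FOLR1-high was 118, with an interval from 20.6 to 4698, and 46.9 with at least 10 marker counts. HIST1H1D, which encodes the linker histone H1.3, read 7.84 CPM (5.17 to 11.4), 14.2 (10.5 to 18.8) and 9.52 (6.89 to 12.8), and its intervals overlapped between neighbours. The 36 HIST genes with 1 to 99 counts included HIST1H2BG (2, 48 and 7 counts, 24.5-fold higher in RARRES2-high than in ERBB2-high), HIST1H2BJ (4, 44 and 2) and HIST2H2BE (3, 41 and 4), which were named after their values were seen. These H2B genes had most of their counts in RARRES2-high. HIST1H2BL went the other way with 17, 1 and 8 counts.

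The replacement genes had no single direction. H3F3B and H3F3A encode the same protein, H3.3, which is placed in chromatin outside replication. H3F3B read 1891 CPM (1845 to 1938) in ERBB2-high, 3352 (3291 to 3415) in RARRES2-high and 819 (793 to 846) in FOLR1-high. H3F3A read 1105, 771 and 1154 CPM, lowest where H3F3B was highest. The RARRES2-high to FOLR1-high ratio was 4.09 (3.94 to 4.25) for H3F3B and 0.67 (0.64 to 0.70) for H3F3A.

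H2AFZ and H2AFV encode H2A.Z, which marks promoters. H2AFZ read 1138 CPM (1102 to 1174), 927 (895 to 960) and 1050 (1021 to 1081). H2AFV read 102, 193 and 154 CPM. H2AFY, which encodes macroH2A1, a large H2A of silent chromatin, read 161, 172 and 129 CPM. All 3 stayed within 2-fold between any classes. Without mitochondrial and ribosomal protein genes in the total, the ratio of ERBB2-high to FOLR1-high passed to the other side of 1, from 1.08 to 0.84 for H2AFZ and from 1.25 to 0.98 for H2AFY.

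H2AFY2, which encodes macroH2A2, was almost confined to 1 class. It had 141 counts in ERBB2-high barcodes, 0 in RARRES2-high and 2 in FOLR1-high. Its level in ERBB2-high was 41.0 CPM (34.5 to 48.3). A count of 0 allows up to 0.89 CPM in RARRES2-high, and with this limit in place of 0 the ratio of ERBB2-high to RARRES2-high was 46.1. That ratio leaves out the counting error of the 141 counts. Against FOLR1-high the ratio was 92.5, with an interval from 25.1 to 771, and 182 as a mean over barcodes.

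H2AFJ, an H2A gene beside HIST4H4 on chromosome 12, was low in FOLR1-high. It read 185 CPM in ERBB2-high, 297 in RARRES2-high and 3.99 (2.36 to 6.30, 18 counts) in FOLR1-high, a 46.5-fold and a 74.6-fold gap. With lines set by 90% of marker counts the gaps were 153 and 225, and as means over barcodes 27.9 and 44.5. H1F0 encodes H1.0, the linker histone of slowly dividing and differentiated cells. It read 4.36 CPM (2.44 to 7.19), 86.4 (76.8 to 97.0) and 28.4 (23.7 to 33.7), so all 3 classes stood apart. H2AFX, whose product is phosphorylated at DNA breaks, read 50.3, 63.1 and 21.9 CPM. The remaining replacement gene with counts over 50, H1FX, read 7.84, 13.0 and 3.77 CPM.

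Set against all genes, the HIST entries stood out in the RARRES2-high comparisons by count. Between RARRES2-high and ERBB2-high, 8 of 13 HIST entries with at least 50 counts were 2-fold or more higher in RARRES2-high and 0 were lower, where 13% of 9137 entries were higher and 21.1% lower. Their median log2 ratio was 1.13, against -0.21 for all entries. Other line definitions ended 2 of these calls: HIST1H2BN stood at 1.93 with 90% of marker counts and 1.94 with at least 10 marker counts, and HIST1H3G at 1.60 with the latter. Of 10 replacement entries H1F0 was higher and H2AFY2 lower. Between RARRES2-high and FOLR1-high, 8 of 12 HIST and 5 of 9 replacement entries were higher and 0 lower, with 21.9% of 9100 entries higher and 12.9% lower. The medians were 2.01 for HIST, 1.52 for replacement and 0.20 for all entries.

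Between ERBB2-high and FOLR1-high the histone entries lay close to the background. Of 9 HIST entries only HIST1H1E passed 2-fold, with 11.3 against 4.21 CPM. Of 9 replacement entries 4 were higher in ERBB2-high (H2AFY2, H3F3B, H2AFX, H2AFJ) and H1F0 was lower. Of all 9237 entries 26% were higher and 9.36% lower. With CPM set on counts without mitochondrial and ribosomal protein genes, the median of all entries for this pair moved from 0.45 to 0.09 on the log2 scale. HIST then had 1 higher and 1 lower and replacement 2 higher and 1 lower, beside 16.3% and 14.2% of all entries. H3F3B had a ratio of 1.80 and H2AFX of 1.78 on that scale. H2AFX was at 1.89 as a mean over barcodes and at 4.27 with at least 10 marker counts. For RARRES2-high over FOLR1-high the median of all entries moved from 0.20 to -0.11, with 15.6% of entries higher and 18.6% lower, while HIST had 7 higher and 0 lower, HIST1H2AG being at 1.94. The 3 comparisons share their classes and are not independent.

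**Figure D3:**
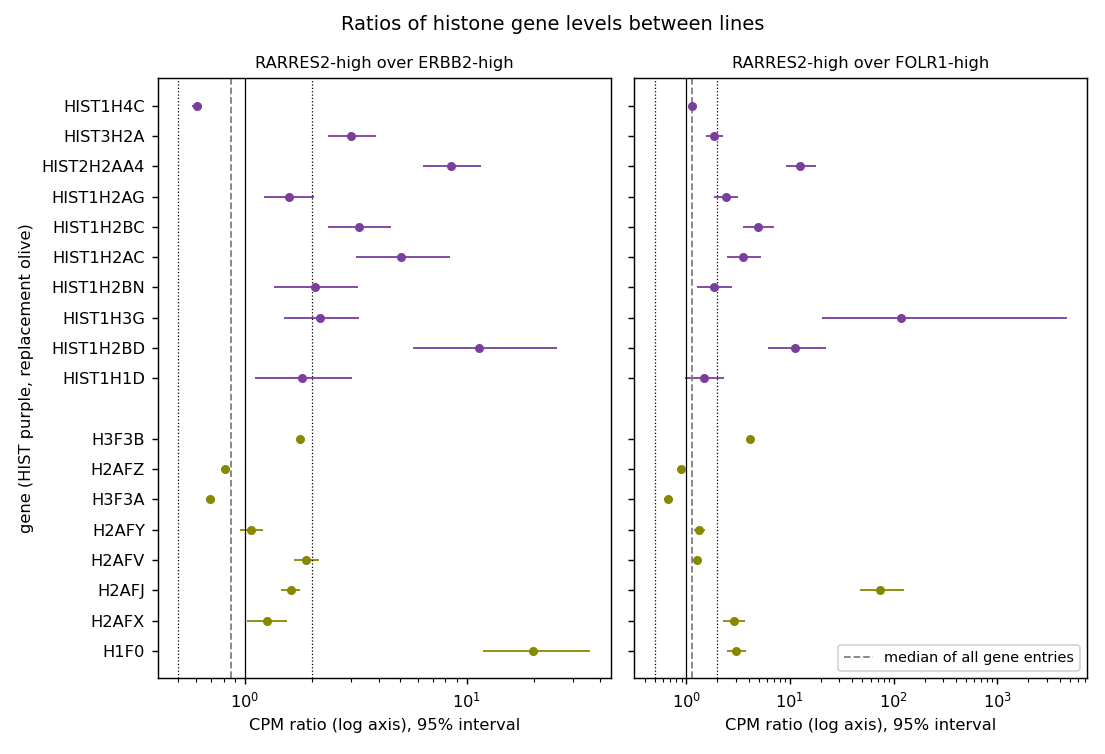
CPM ratios on a log axis with 95% intervals of named histone genes, RARRES2-high over ERBB2-high on the left and over FOLR1-high on the right. Dotted lines mark 2-fold, the dashed line is the median of all gene entries, and H2AFY2 is left out because it had 0 counts in RARRES2-high. Every HIST gene shown lies to the right of 1 in both panels except HIST1H4C over ERBB2-high at 0.60, and H3F3A lies to the left in both.

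The transcript forms of HIST1H2BC differed between lines. The spliced form without the stem-loop took 12.5% of 52 counts in ERBB2-high (4.35 to 23.4, exact Clopper-Pearson interval on rounded counts), 65.4% of 166 in RARRES2-high (57.3 to 72.3) and 51.1% of 45 in FOLR1-high (35.8 to 66.3). The difference between RARRES2-high and ERBB2-high was 52.9 percentage points. It was the only 1 of 5 histone entries that passed 20 points in that pair, where 2.45% of 4245 entries did. None of 4 passed in either other pair, where 3.25% and 2.21% of entries did, but HIST1H2BC was not among these 4, since its 45 counts in FOLR1-high were under the 50 needed. With lines set by 90% of marker counts or by at least 10 marker counts, or with 100 counts needed in each line, HIST1H2BC no longer had enough counts in ERBB2-high to be compared.

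The 4 other histone genes compared by form, all replacement genes, stayed under 10 points between any classes. H2AFY form ENST00000312469 took 14.4%, 19.1% and 9.34% of the gene's counts in ERBB2-high, RARRES2-high and FOLR1-high. H2AFV form ENST00000308153 took 72.0%, 79.9% and 74.4%. For H3F3A and H3F3B the largest gap was 0.17 points. HIST1H2AC had too few counts to be compared: its form ENST00000602637 took 9.09%, 21.9% and 14.6%, on 2, 23.9 and 6.01 counts. All spliced HIST forms without a stem-loop match summed to 6.39 CPM (4.01 to 9.68) in ERBB2-high, 83.3 (73.7 to 93.5) in RARRES2-high and 10.6 (7.84 to 14.1) in FOLR1-high. That was 3.51%, 15.6% and 6.76% of HIST counts without HIST1H4C.

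Because these genes are known for S phase, barcodes of each class were cut into 3 groups of equal or nearly equal size (terciles) by the summed CPM of 24 S-phase genes such as PCNA and MCM2, none of them a histone. A tercile is a range of a score and not a cell type. The score differed widely in its lower tercile, with a median of 0 CPM in ERBB2-high, 755 in RARRES2-high and 249 in FOLR1-high. G2 and mitosis genes summed to 180 and 320 CPM in the lower tercile of ERBB2-high and FOLR1-high, and to 2783 in that of RARRES2-high. Low-scoring RARRES2-high barcodes were therefore still rich in mitotic RNA. Median depth rose from 4240 to 5915 counts from lower to upper tercile in ERBB2-high, from 5532 to 6206 in RARRES2-high and from 4523 to 6284 in FOLR1-high. The part of depth in the differences was not tested beyond the thinned values given with the alternatives.

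HIST1H4C was higher in the upper tercile of every class. It went from 607 CPM in the lower to 626 in the middle and 2360 in the upper tercile of ERBB2-high, a ratio of 3.89 (3.56 to 4.25). In RARRES2-high it went from 425 to 804 and 1113, a ratio of 2.62 (2.35 to 2.92). In FOLR1-high it went from 240 to 408 and 1308, a ratio of 5.46 (4.85 to 6.16). In ERBB2-high the step lay between the middle and upper tercile, while RARRES2-high was higher at each step. The RARRES2-high ratio was 1.87 with a cut at the median and 1.72 when barcodes were ordered by the G2 and mitosis list.

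The other HIST genes together were higher in the upper tercile of ERBB2-high and FOLR1-high but not of RARRES2-high. They read 89.5, 68.1 and 346 CPM across the terciles of ERBB2-high, a ratio of 3.87 (3.07 to 4.93). In FOLR1-high they read 150, 111 and 204 CPM, a ratio of 1.36 (1.14 to 1.63). In RARRES2-high they read 636, 463 and 509 CPM, a ratio of 0.80 (0.71 to 0.90). The class with the highest level of these genes thus had the lowest ratio. That ratio lay between 0.77 and 0.87 over the 6 alternatives tried.

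**Figure D4:**
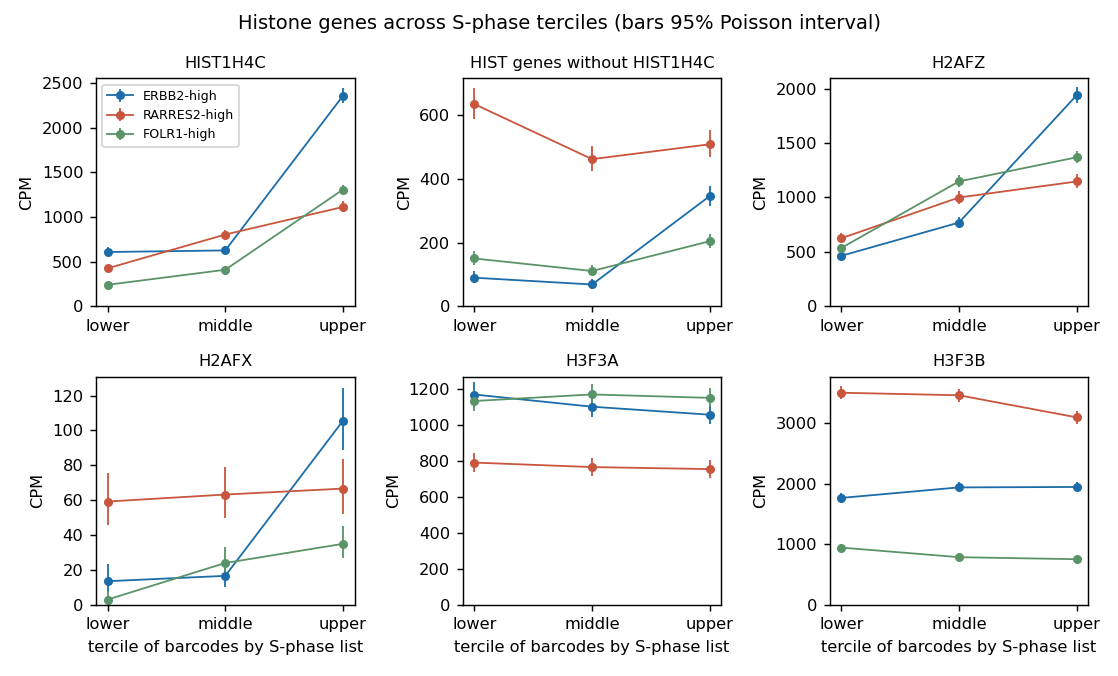
CPM of 6 histone readouts in the lower, middle and upper tercile of barcodes by the summed S-phase list, for the 3 line classes, with 95% Poisson intervals. From lower to upper tercile HIST1H4C and H2AFZ are higher in every class, the other HIST genes are higher in ERBB2-high and FOLR1-high, with the middle tercile lowest in both, and lower in RARRES2-high, and H3F3A is nearly level.

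Single HIST genes did not move alike. HIST1H2AG read 3.12 CPM in the lower and 69.6 in the upper tercile of ERBB2-high, 6.78 and 38.5 in FOLR1-high, and 35.2 and 57.5 in RARRES2-high. The ratios were 22.3 (7.40 to 110), 5.68 (2.81 to 13.0) and 1.64 (1.08 to 2.51), and the last became 0.87 when barcodes were thinned to 2000 counts. The first was 8.85 by the G2 and mitosis list, and the second 12.4 with quartiles. HIST1H1D had 1 and 25 counts in ERBB2-high, 6 and 27 in RARRES2-high and 0 and 38 in FOLR1-high. With the 0 set to 3 counts the last ratio was 9.96, and its interval began at 7.71. HIST1H3G had 0 and 39 counts in ERBB2-high, a ratio of 9.35 with the 0 set in the same way and an interval from 7.25. It had 20 and 38 in RARRES2-high, where thinning moved the ratio from 1.87 to 1.13. The clustered H1 genes summed went from 13.5 to 61.4 CPM, 18.5 to 55.7 and 3.02 to 55.1 in ERBB2-high, RARRES2-high and FOLR1-high. Apart from HIST1H2AG in RARRES2-high, whose direction depended on thinning, these genes were higher in the upper tercile wherever their values are given here.

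Other genes were lower in the upper tercile of RARRES2-high or FOLR1-high. HIST1H2BD, nearly all in its spliced form, read 53.7 CPM in the lower and 19.2 in the upper tercile of RARRES2-high, a ratio of 0.36 (0.21 to 0.60), or 0.56 by the G2 and mitosis list. HIST1H2AC read 43.5 and 16.4 CPM there, a ratio of 0.38 (0.21 to 0.66), or 0.76 by that list, and 13.6 and 5.93 CPM in FOLR1-high, a ratio of 0.44 (0.18 to 1.00). In ERBB2-high HIST1H2AC had 4 and 15 counts, a ratio of 2.70 (0.86 to 11.2). HIST3H2A read 67.8 and 24.3 CPM in FOLR1-high, a ratio of 0.36 (0.24 to 0.52), and 99.9 and 66.6 in RARRES2-high, where thinning turned the ratio from 0.67 to 1.13. In ERBB2-high HIST3H2A read 23.9 and 32.2 CPM, within counting error, with a ratio of 1.34 that was 2.54 by the G2 and mitosis list.

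For the remaining named genes the interval lay to 1 side of 1 in a single class. HIST2H2AA4 read 172 and 112 CPM in the lower and upper tercile of RARRES2-high, a ratio of 0.65 (0.52 to 0.82). Its ratio was 1.03 (0.52 to 2.09) in ERBB2-high and 1.23 (0.63 to 2.46) in FOLR1-high, both within counting error. HIST1H2BN had ratios of 3.31 (1.23 to 11.1), 0.80 (0.40 to 1.59) and 2.01 (0.90 to 4.93) in ERBB2-high, RARRES2-high and FOLR1-high.

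Counted by the 2-fold limit, 2 of 3 HIST entries with 50 counts were higher in the upper tercile of ERBB2-high, where 5.41% of entries were, and 0 were lower, beside 0.691% of entries. In RARRES2-high 1 of 8 (HIST1H4C) was higher and 2 (HIST1H2AC, HIST1H2BD) were lower, beside 2.04% and 0.814% of entries. Each of these 3 calls ended under the G2 and mitosis list, as given above. In FOLR1-high 2 of 3 were higher and HIST3H2A was lower, beside 5.36% and 0.67%.

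Within HIST1H2BC the 2 forms went opposite ways in RARRES2-high and FOLR1-high. In RARRES2-high the form with the stem-loop read 12.0, 14.1 and 25.1 CPM from lower to upper tercile, a ratio of 2.09 (1.07 to 4.47). The spliced form without it read 49.0, 25.0 and 23.3 CPM there, a ratio of 0.47 (0.29 to 0.79). Neither is firmly past 2-fold: the first was 1.72 with a cut at the median, and the second lay between 0.51 and 0.60 under 4 of the alternatives. In FOLR1-high the stem-loop form had 0, 7 and 15 counts and the spliced form 13, 5 and 5. In ERBB2-high the stem-loop form had 3, 3.5 and 39 counts, and the spliced form 1, 1.5 and 4. Both forms were thus higher in the upper tercile there, the spliced one on few counts, with a ratio of 2.88 (0.28 to 142). The spliced share of the gene in RARRES2-high was 80.3% (68.7 to 89.1) in the lower, 63.8% (48.5 to 77.3) in the middle and 48.1% (35.1 to 63.2) in the upper tercile. In FOLR1-high it was 100% of 13 counts, 41.7% of 12 and 25.0% of 20, and in ERBB2-high 9.30% of the 43 counts of the upper tercile. Without HIST1H2BC, the other spliced HIST forms lacking the stem-loop went from 80.9 to 29.2 CPM in RARRES2-high, a ratio of 0.36 (0.23 to 0.55), and from 10.6 to 2.37 CPM in FOLR1-high.

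**Figure D5:**
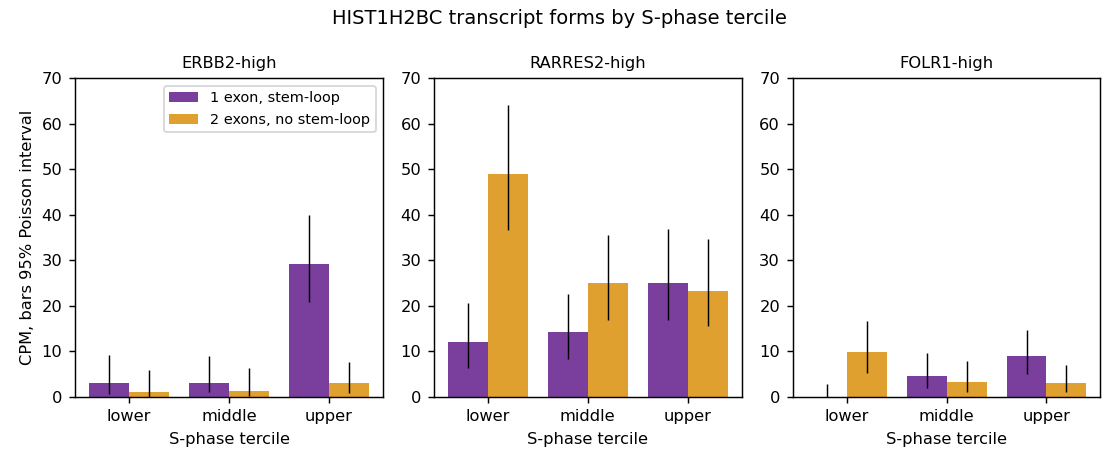
CPM of the 2 HIST1H2BC forms by S-phase tercile in each line class, with 95% Poisson intervals. The spliced form is the taller bar in the lower tercile of RARRES2-high and FOLR1-high, and the stem-loop form is the taller in the upper tercile of all 3 classes.

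Replacement genes split as well. H2AFZ read 463 and 1939 CPM in the lower and upper tercile of ERBB2-high, 625 and 1147 in RARRES2-high and 535 and 1369 in FOLR1-high, ratios of 4.19, 1.84 and 2.56. H2AFX read 13.5 and 106 CPM in ERBB2-high and 3.02 and 35.0 in FOLR1-high, ratios of 7.80 (4.42 to 15.0) and 11.6 (4.30 to 44.0). After thinning these ratios were 4.17 and 4.25. In RARRES2-high H2AFX read 59.2 and 66.6 CPM, within counting error, with a ratio of 1.13 that was 3.57 by the G2 and mitosis list. H2AFX is known to give both a stem-loop mRNA and a polyadenylated one. H3F3A stayed nearly level, with ratios of 0.90 (0.84 to 0.98), 0.95 (0.87 to 1.05) and 1.02 (0.95 to 1.09). H3F3B had ratios of 1.10 (1.04 to 1.17), 0.88 (0.84 to 0.93) and 0.80 (0.74 to 0.86), above 1 only in ERBB2-high. The replacement total had ratios of 1.48 (1.43 to 1.54), 1.01 (0.97 to 1.05) and 1.28 (1.23 to 1.33). By the 2-fold limit 3 of 8 replacement entries were higher in ERBB2-high (H2AFV, H2AFX, H2AFZ), 0 of 8 in RARRES2-high and 2 of 7 in FOLR1-high (H2AFX, H2AFZ), with 0 lower, beside the 5.41%, 2.04% and 5.36% of all entries that were higher. With a cut at the median H2AFV in ERBB2-high was at 1.91 and H2AFZ in FOLR1-high at 1.89.

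The spread between barcodes was wide for HIST1H4C. After thinning every barcode to 2000 counts, which left out 42, 30 and 32 barcodes, HIST1H4C had a variance 4.91, 2.53 and 4.16 times its mean in ERBB2-high, RARRES2-high and FOLR1-high. H2AFZ had 2.87, 1.42 and 2.09, and H3F3A 1.34, 1.33 and 1.25. The tenth of ERBB2-high barcodes richest in HIST1H4C held 47.9% of its thinned counts, against 26.5% for H3F3A. H3F3B had 2.30 in RARRES2-high, where its mean of 6.50 counts was above the 1.53 of H3F3A and the tenth of barcodes richest in it held 22.6% of its counts, against 30.3% for H3F3A.

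The lists of genes that handle histones were read in the same way. Of 18 genes of histone mRNA processing and decay with 50 counts, 0 were 2-fold higher in RARRES2-high than in ERBB2-high and 7 were lower, beside 13% and 21.1% of all entries, with a median log2 ratio of -0.61 beside the -0.21 of all entries. LSM10, a subunit of the U7 particle that cuts histone mRNA, read 289, 101 and 88.6 CPM. ZCCHC11 and ZCCHC6, terminal uridylyl transferases of RNA decay, read 79.0, 21.9 and 55.8 CPM and 39.8, 16.6 and 18.8 CPM. NCBP2, of the cap-binding complex, read 63.3, 56.0 and 69.8 CPM. SLBP, named after its values were seen, read 34.6, 34.0 and 49.8 CPM, and its upper to lower tercile ratio was 1.30, 3.48 and 1.64. Of the same list 1 of 18 was higher and 2 were lower between RARRES2-high and FOLR1-high, beside 21.9% and 12.9% of all entries. Between ERBB2-high and FOLR1-high 3 of 19 were higher and 0 lower, beside 26% and 9.36%.

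Of 23 chaperones and exchange factors 1 was higher and 2 were lower between RARRES2-high and ERBB2-high, 3 were higher and 1 was lower between RARRES2-high and FOLR1-high, and 3 were higher and 0 lower between ERBB2-high and FOLR1-high. Set beside the shares of all entries just given, each of these counts is below the background. ASF1B, an H3-H4 chaperone tied to proliferation, read 14.8, 36.4 and 17.5 CPM, and its close relative ASF1A read 58.4, 23.4 and 21.5. EP400, of an H2A.Z exchange complex, read 50.6, 24.3 and 23.9 CPM. NASP, which carries H3 and H4, read 182, 163 and 351 CPM, and NAP1L1, which carries H2A and H2B, read 600, 351 and 464 CPM. The entry with most counts joins the importin gene IPO4 with neighbours such as NEDD8 and read 785, 573 and 643 CPM, so the part of IPO4 in it is not known.

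Of 23 S-phase genes 11 were higher and 0 lower in RARRES2-high than in ERBB2-high, beside 13% and 21.1% of all entries, and 2 were higher and 1 was lower than in FOLR1-high, beside 21.9% and 12.9%. Between ERBB2-high and FOLR1-high 0 were higher and 6 were lower in ERBB2-high, the class with the highest HIST1H4C level, beside 26% and 9.36%. TK1, a thymidine kinase, read 85.7, 472 and 81.9 CPM in ERBB2-high, RARRES2-high and FOLR1-high, and CLSPN, a replication checkpoint gene, read 57.8, 116 and 47.0, so both were highest in RARRES2-high. PCNA, the sliding clamp, read 90.6, 144 and 140 CPM. The entry of RRM2, a ribonucleotide reductase subunit, read 51.1, 102 and 153 CPM. Lowest in ERBB2-high by 2-fold against both others, as RRM2 was, were MCM7 (38.3, 132 and 136 CPM), GINS2 (27.0, 99.2 and 87.9), CDT1 (21.5, 49.1 and 47.8), MCM2 (18.6, 58.0 and 42.1) and UHRF1 (6.97, 16.6 and 14.2).

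Of 16 G2 and mitosis genes 7 were higher and 0 lower in RARRES2-high than in ERBB2-high, 4 were higher and 0 lower than in FOLR1-high, and 0 were higher and 1 was lower in ERBB2-high than in FOLR1-high, with the same shares of all entries. CENPF, of the kinetochore, read 248, 357 and 308 CPM, TPX2, of the spindle, 174, 373 and 194, and TOP2A, a topoisomerase, 289, 213 and 212. UBE2C (121, 434 and 158 CPM), BIRC5 (99.1, 287 and 72.4) and PLK1 (64.2, 135 and 50.5) were at least 2-fold higher in RARRES2-high than in both others, and AURKB (18.9, 38.8 and 42.1) was lowest in ERBB2-high. CENPA, the centromeric H3, read 27.3, 20.1 and 10.9 CPM. Of 9 markers of blood and endothelial cells CDH5 had 103 of its 121 counts in RARRES2-high, PECAM1 had 12 counts and HBA1 10. PECAM1 went another way, with 4, 0 and 8 counts in ERBB2-high, RARRES2-high and FOLR1-high. All 9 together had 7, 114 and 30 counts in this order, those in RARRES2-high mostly from CDH5, with LYZ and CD3E at 0. The part of these lists in the histone differences was not tested.

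Many clustered genes lie head to head and share a promoter. Of 15 such pairs, with starts within 500 bases, 8 had counts on both sides. HIST1H2BF is paired both with HIST1H2AD and with HIST1H3D, and the pair with HIST1H3D is among the 8. Some of the 15 include entries that do not code for protein, such as HIST1H2APS4. The promoters below were taken from RefSeq (GRCh38.p14), because their genes bear on the differences above. Each was cut at the RefSeq start, or before it where an annotated transcript lies. Matches to the TATA box TATAAA, to the short box spelled CCAAT and to the longer motif ATTTGCAT on either strand are in capitals, and joined capitals such as TTTATAAA hold overlapping matches on both strands. The 300-base windows of HIST1H2AC and HIST1H2BC also hold a TATAAA match, which lies outside the shared stretch printed here.
HIST1H2AC, shared with HIST1H2BC, chr6:26123927-26124144, plus strand: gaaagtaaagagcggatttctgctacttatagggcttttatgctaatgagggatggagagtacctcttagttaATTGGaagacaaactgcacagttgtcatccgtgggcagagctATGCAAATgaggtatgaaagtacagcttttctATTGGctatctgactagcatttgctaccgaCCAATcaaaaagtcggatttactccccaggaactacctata
HIST1H2AG, chr6:27132793-27133041, plus strand: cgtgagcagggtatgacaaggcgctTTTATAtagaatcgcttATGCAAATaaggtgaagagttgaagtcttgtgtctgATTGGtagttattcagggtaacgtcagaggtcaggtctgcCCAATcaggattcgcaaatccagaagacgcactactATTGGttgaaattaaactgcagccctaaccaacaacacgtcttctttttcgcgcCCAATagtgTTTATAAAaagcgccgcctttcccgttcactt
HIST1H2BD, chr6:26157871-26158120, plus strand: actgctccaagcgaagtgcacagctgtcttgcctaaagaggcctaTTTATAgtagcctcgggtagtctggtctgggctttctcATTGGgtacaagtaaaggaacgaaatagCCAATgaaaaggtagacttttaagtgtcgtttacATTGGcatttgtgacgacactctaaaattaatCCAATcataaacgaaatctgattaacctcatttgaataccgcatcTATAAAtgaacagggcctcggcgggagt
HIST1H1D, chr6:26234988-26235237, minus strand: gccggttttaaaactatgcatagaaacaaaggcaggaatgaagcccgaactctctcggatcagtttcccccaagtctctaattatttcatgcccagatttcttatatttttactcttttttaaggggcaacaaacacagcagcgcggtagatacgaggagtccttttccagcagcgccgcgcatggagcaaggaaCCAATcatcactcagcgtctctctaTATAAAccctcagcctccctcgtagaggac

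HIST1H2BC and HIST1H2AC share the first sequence, with 308 and 222 counts on its sides. HIST1H2BJ starts 292 bases from HIST1H2AG, with 66 counts against 398, and HIST3H2BB starts 234 bases from HIST3H2A, with 16 against 651. The sides of a shared promoter were thus read at unequal levels. In RARRES2-high the upper to lower tercile ratio was 0.79 (0.54 to 1.15) for HIST1H2BC as a whole and 0.38 (0.21 to 0.66) for HIST1H2AC, and these intervals overlap.

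By family, ATTTGCAT, the octamer, stood in 11 of 14 HIST H2A and 14 of 18 HIST H2B promoters, in 1 of 10 H3, and in 0 of 13 H4 and 0 of 6 H1 promoters, against 1.77% of 35116 RefSeq promoters of 300 bases. The H3 match was in HIST1H3D, whose window is the same as that of HIST1H2AD. Windows of head-to-head genes can overlap, so 1 site can count for both genes, as for HIST1H2AC and HIST1H2BC. TATAAA stood in 40 of 61 HIST promoters, against 11.5% of all, and CCAAT in 51 of 61, against 34.6%. CCAAT stood in every HIST H2A, H2B, H3 and H1 promoter matched and in 3 of 13 H4 promoters. Among 14 replacement promoters 4 held TATAAA, 11 CCAAT and 1 the octamer. HIST1H2BD has TATAAA and CCAAT matches and no octamer match in this window. HIST1H2AC, which like HIST1H2BD was lower in the upper tercile of RARRES2-high, has the octamer, as HIST1H2AG does. A match is a description of letters and not evidence of binding.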

How the data were processed

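Estimated counts per transcript and barcode were deposited by the authors and are not normalized. The design text names the Isosceles package, and the submitters' processing notes name Cell Ranger 6.0.1 and GRCh38. Not given in the sources used here are aligner, annotation release, Isosceles version, use of strand and merging of molecular identifiers. The deposited expected counts were summed per gene entry, and 100% of the sums per entry and barcode were whole within 1e-06. Of the Illumina library only the barcode list was used.

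Member rules and gene lists were chosen with earlier results of these data known. Every member with at least 100 counts in the 3 classes was named, with the 3 genes with most counts of each other list and those 2-fold apart in both pairs of a class. Some further genes are marked as named after their values were seen. To enter a count of 2-fold calls an entry needed at least 50 counts over both groups, and to enter a count of share differences at least 50 in each class. Ratios and shares of named genes below this are given with their counts or intervals. A gene at 0 was set to a limit of 3 counts. All 151 member transcripts matched GENCODE 29 by identifier, start and end, and 75 members, 61 of them HIST genes, matched a RefSeq promoter. No doublets were removed beside the marker share. Scrublet, run in scanpy 1.11.5 with an expected rate of 2%, called 76 barcodes (3.09%), 30 of them in the classes, and their removal was an alternative. Functions were tested on simulated data. Python 3.11.15, numpy 2.4.6, scipy 1.17.1 and pandas 2.3.3 were used.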

Additional observations from a re-analysis of the deposited data

Results flagged for a closer look

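Histone counts also stood in barcodes that the comparisons do not use. The 333 barcodes under 1000 counts held 146 HIST counts, 1322 CPM (1116 to 1555), and 313 replacement counts, 2835 CPM (2529 to 3167), above the 27.2 CPM that a count of 0 allows there. The 243 deeper barcodes of no class held 1825 HIST counts, 1136 CPM (1084 to 1189), and 8570 replacement counts, 5333 CPM (5220 to 5447), above a limit of 1.87 CPM. There was no control library to set these against.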

How the results depend on the processing

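No paired analysis was possible because only a single PromethION library was compared. Of 132 alternative values of the main results 88 stayed within the counting interval or within 1.5 times the count. HIST CPM in ERBB2-high, RARRES2-high and FOLR1-high was 1609, 1268 and 903 with at least 10 marker counts and 1735, 1608 and 1287 without mitochondrial and ribosomal protein genes; as a mean over barcodes it was 1242, 1304 and 771, which turned the order of the first 2 classes, and with 90% of marker counts 1370 in RARRES2-high. Replacement CPM was 5508, 7178 and 5080 without those genes, 4545 in ERBB2-high and 5692 in RARRES2-high as a mean over barcodes, 5674 in RARRES2-high at 90% and 3513 in FOLR1-high with 10 marker counts. Entries 2-fold apart numbered 10, 13 and 6 (RARRES2-high against ERBB2-high, RARRES2-high against FOLR1-high, ERBB2-high against FOLR1-high) and 4, 7 and 3 with at least 200 counts, where fewer entries were tested. At 1.5-fold they numbered 18 in the first pair and 11 in the last, and in the last pair 14 with 20 counts and 3 at 3-fold. Entries with a share difference of 20 points went from 1 to 0 in the first pair at 90% of marker counts, with 10 marker counts and with 100 counts, where HIST1H2BC dropped below the count needed, and from 0 to 1 in the last pair with 20 counts.

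The S-phase ratio of HIST genes was 4.76 with quartiles, 3.03 with a cut at the median and 3.22 as a mean over barcodes in ERBB2-high. In RARRES2-high it was 1.36 with a cut at the median, 1.20 by the G2 and mitosis list and 1.35 thinned to 2000 counts. In FOLR1-high it was 2.99, 4.61 and 3.25 in this order, and 3.45 as a mean over barcodes. The replacement ratio was 1.32 with a cut at the median, 1.42 as a mean and 1.33 thinned in ERBB2-high, 1.20 by the G2 and mitosis list and 1.07 as a mean in RARRES2-high, and 1.21 with a cut at the median and 1.64 by that list in FOLR1-high. The cause of these shifts was not tested. Depth limits the genes under 50 counts, which enter no ratio count, and the ERBB2-high and FOLR1-high forms of HIST1H2BC.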
